A study of Homo sapiens with 4 samples.

Results

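The comparison described here sets the ribosome profile of THP-1 against that of the library labelled MOLM13, 2 of the 4 leukemia cell line libraries of the series. Both lines are known for a rearrangement of KMT2A, the histone methyltransferase gene whose fusions drive a class of acute leukemia. THP-1 is an acute monocytic leukemia line with a KMT2A-MLLT3 fusion, and MOLM13 is known for a KMT2A rearrangement together with an internal tandem duplication of the receptor kinase gene FLT3. The labels name no treatment or genotype beyond the line, and each line has 1 library. THP-1 was grown in RPMI1640 with 2-mercaptoethanol and MOLM13 in DMEM, so medium and line cannot be told apart. K562 and HL60, the other two lines, enter no comparison and are given as values beside the named genes. Of 60651 genes listed, 11119 nuclear protein-coding genes reached a scaled TPM of 1 in THP-1 or in the library labelled MOLM13 and were compared. TPM is a level corrected for transcript length and library size, and "scaled" means divided by a median-ratio factor computed over 4908 genes at 10 TPM or more in both. With 1 library a side there is no replicate error, so no p-value is given and every difference is one between these 2 libraries.

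Ribosome profiling sequences the short RNA fragments that ribosomes protect from nuclease, so that a gene's level reflects how much ribosome-bound message a cell holds. Myeloid leukemia cells arrest at different steps of differentiation. Progenitor-like cells carry surface proteins such as CD34, promyelocyte-like cells fill their primary granules with serine proteases, and monocytic cells carry antigen presentation, chemokine receptor and phagocyte genes. KMT2A fusion proteins are known to hold the late HOXA genes and their partner MEIS1 active.

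THP-1 had 678 Mb of aligned exonic bases and the library labelled MOLM13 had 344 Mb, which correspond to 23.4 M and 11.9 M fragments of 29 bases. The name on the file deposited for MOLM13 differs from its label, and several levels in that library go against the label. FLT3, the defining receptor of MOLM13, was listed at 1.93 scaled TPM in THP-1 but at 0 in the library labelled MOLM13. CSF1R, ITGAM and MEIS1 were also listed at 0 there, though MEIS1 was under 1 scaled TPM in THP-1 too. HOXA9 (16.6 in THP-1 against 31.7 in the library labelled MOLM13) and HOXA10 (19.8 and 17.4) were present in both. Of 13 markers of a KMT2A-rearranged monocytic line, 11 reached 1 scaled TPM in THP-1 and 8 did in the library labelled MOLM13. Their summed level was 3314 in THP-1 against 92.4 in the library labelled MOLM13. Most of the THP-1 sum came from LYZ alone, at 2932 in THP-1 against 11.2 in the library labelled MOLM13. The summed level of 8 T cell markers was 4.32 in THP-1 against 971 in the library labelled MOLM13, nearly all of it from CD3D, while CD2, CD5, LCK and TRBC2 were at 0 in both. The summed level of 5 epithelial markers was 59.1 in THP-1 against 449 in the library labelled MOLM13, with 639 in K562 and 38.9 in HL60. In a bulk library, more cells of a type and more message per cell cannot be told apart. The label is therefore kept only as a name, and since every comparison rests on this library, none can be given without it. A gene listed at 0 is not shown to be unread, because TPI1, RPL26 and NDUFA4, which nearly all cells use, were listed at 0 in the library labelled MOLM13.

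A gene was called when its log2(scaled TPM + 1) differed by 2 or more and the higher library held at least 600 aligned bases, equal to 20.7 fragments. By this rule 1283 of 11119 protein-coding genes (11.5%) were higher in THP-1 and 906 (8.15%) were higher in the library labelled MOLM13. Many calls rest on genes listed at 0 on the lower side, 812 of those higher in THP-1 and 354 of those higher in the library labelled MOLM13. Among the 9247 genes above 0 in both libraries, 471 (5.09%) were higher in THP-1 and 552 (5.97%) were higher in the library labelled MOLM13, with a median difference of -0.19. The excess of calls toward THP-1 was thus held by genes at 0, and 590 genes compared were at 0 in THP-1 against 1282 in the library labelled MOLM13. The part of the lower depth of the library labelled MOLM13 in that difference was not tested. On the log2(scaled TPM + 1) scale, which draws low genes together, 5853 (52.6%) lay within 2-fold. The median difference was -0.09, a value that the median-ratio scaling holds near 0.

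**Figure D1:**
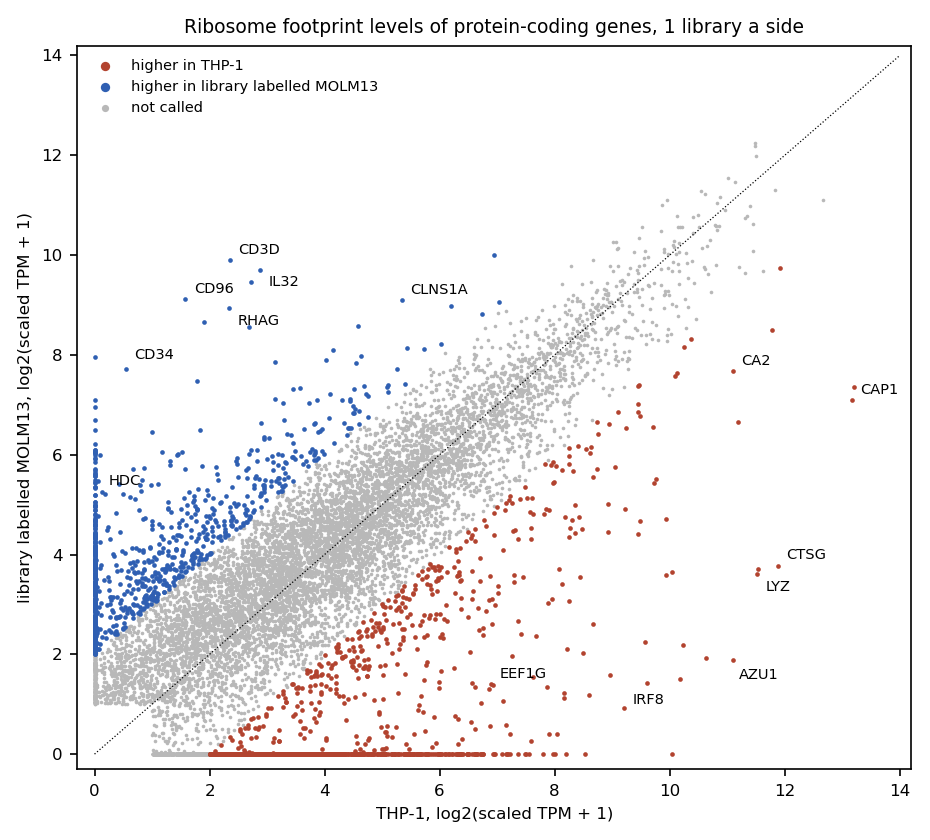
Each point is 1 protein-coding gene, placed by its log2(scaled TPM + 1) in THP-1 on the horizontal axis and in the library labelled MOLM13 on the vertical axis. Coloured points differ by 2 or more on this scale with enough aligned bases, and genes on an axis line are listed at 0. CAP1, CTSG, LYZ and AZU1 lie far toward THP-1, and CD3D, IL32, CD96 and RHAG lie far toward the library labelled MOLM13.

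Among genes above 0 in both, the largest differences toward THP-1 were in primary granule proteins. AZU1 (ENSG00000172232.10, chr19:825097-832018, hg38), which encodes the antimicrobial protein azurocidin, had 2186 scaled TPM in THP-1 against 2.68 in the library labelled MOLM13, with 0 in K562 and 357 in HL60. That is 815-fold higher in THP-1, with a 95% interval of 611 to 1099 that covers counting error only, as do all intervals below. PRTN3 (chr19:840999-848175), the gene of proteinase 3, had 1152 in THP-1 against 1.85 in the library labelled MOLM13, with 0 in K562 and 171 in HL60. ELANE (chr19:851014-856247), the gene of neutrophil elastase, had 1592 in THP-1 against 2.80 in the library labelled MOLM13, with 0 in K562 and 110 in HL60. These 3 genes are neighbours on the same strand, and each was high in THP-1, intermediate in HL60 and near 0 elsewhere. CTSG (chr14:24573518-24576250), which encodes cathepsin G, had 3757 in THP-1 against 12.7 in the library labelled MOLM13, a 295-fold difference (interval 255 to 344), with 2428 in HL60. LYZ, the lysozyme gene, had 2932 in THP-1 against 11.2 in the library labelled MOLM13, and shares exonic bases with another annotated gene.

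The 5′ windows of 3 of these granule genes are shown because the genes differed together, with windows of CD34, HDC and CD3D, which differed in the opposite direction, for contrast. Each runs from 250 bases before to 50 bases after the transcription start in RefSeq (GRCh38.p14), 5′ to 3′ on the gene's strand. Capitals mark matches on either strand to 4 motifs searched in every promoter window of the table. The C/EBP-type motif was TTGCNNAA. For PU.1, a factor of the ETS family, the letters searched were GAGGAAG. The motif taken for the factors of the GATA family was AGATAA. The motif taken for the RUNX family of factors was TGTGGT, and no matches overlap in these windows. The windows lie at chr19:827587-827886 (AZU1, plus strand), chr19:840749-841048 (PRTN3, plus), chr14:24576201-24576500 (CTSG, minus), chr1:207911076-207911375 (CD34, minus), chr15:50265677-50265976 (HDC, minus) and chr11:118342656-118342955 (CD3D, minus).
AZU1: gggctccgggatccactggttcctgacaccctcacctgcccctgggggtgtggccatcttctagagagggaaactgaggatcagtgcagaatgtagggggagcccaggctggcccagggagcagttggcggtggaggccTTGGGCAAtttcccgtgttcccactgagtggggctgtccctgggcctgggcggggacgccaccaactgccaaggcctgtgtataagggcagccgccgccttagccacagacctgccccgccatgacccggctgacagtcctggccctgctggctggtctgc
PRTN3: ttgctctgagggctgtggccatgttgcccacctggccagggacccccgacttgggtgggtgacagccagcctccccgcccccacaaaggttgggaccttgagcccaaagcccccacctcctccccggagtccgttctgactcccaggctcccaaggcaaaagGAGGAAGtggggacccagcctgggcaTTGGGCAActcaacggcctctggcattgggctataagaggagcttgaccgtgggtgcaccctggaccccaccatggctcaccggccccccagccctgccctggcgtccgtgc
CTSG: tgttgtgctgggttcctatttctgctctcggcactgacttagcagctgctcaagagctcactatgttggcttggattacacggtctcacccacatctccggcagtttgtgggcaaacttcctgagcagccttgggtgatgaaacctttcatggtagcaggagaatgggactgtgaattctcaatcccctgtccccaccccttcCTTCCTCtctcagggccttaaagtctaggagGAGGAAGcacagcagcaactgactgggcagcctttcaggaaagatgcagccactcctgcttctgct
CD34: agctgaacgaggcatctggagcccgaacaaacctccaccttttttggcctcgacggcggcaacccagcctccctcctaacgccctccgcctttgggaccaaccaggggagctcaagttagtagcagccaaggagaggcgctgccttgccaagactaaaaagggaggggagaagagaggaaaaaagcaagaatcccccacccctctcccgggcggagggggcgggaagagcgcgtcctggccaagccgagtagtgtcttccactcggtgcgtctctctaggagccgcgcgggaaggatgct
HDC: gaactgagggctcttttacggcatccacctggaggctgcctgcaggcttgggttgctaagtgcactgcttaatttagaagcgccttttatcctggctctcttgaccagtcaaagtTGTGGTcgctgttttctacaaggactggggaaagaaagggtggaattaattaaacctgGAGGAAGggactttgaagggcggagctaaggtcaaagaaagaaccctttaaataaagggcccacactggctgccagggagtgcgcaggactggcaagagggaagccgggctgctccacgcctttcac
CD3D: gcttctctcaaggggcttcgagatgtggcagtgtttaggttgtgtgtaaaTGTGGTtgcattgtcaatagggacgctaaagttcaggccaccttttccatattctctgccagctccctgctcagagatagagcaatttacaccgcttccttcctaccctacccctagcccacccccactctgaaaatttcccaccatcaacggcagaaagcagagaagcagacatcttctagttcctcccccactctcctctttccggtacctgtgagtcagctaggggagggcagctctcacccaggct
AZU1 and PRTN3 each hold 1 C/EBP-type match, PRTN3 also holds 1 PU.1-type match and CTSG holds 2. HDC holds 1 PU.1-type and 1 RUNX-type match, CD3D holds 1 RUNX-type match, and none of the 4 motifs was found in the CD34 window. Over all 35116 promoter windows of the same length, 10.5% held the C/EBP-type letters, 13.6% the PU.1-type, 10.3% the GATA-type and 13.1% the RUNX-type. Windows were available for 10 of the 12 genes with the largest differences toward THP-1 and for 11 of the 12 toward the library labelled MOLM13. The C/EBP-type letters stood in 3 of these 10 and in 1 of the 11, and the PU.1-type letters in 4 of the 10 and in 1 of the 11. The RUNX-type letters stood in 2 of the 10 and in 3 of the 11, and the GATA-type letters in 0 of the 10 and in 1 of the 11. A match describes the letters alone and does not show that a factor binds there.

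The whole list of 15 primary granule proteins had 10 genes higher in THP-1, 2 higher in the library labelled MOLM13 and a median difference of 5.86, beside -0.09 over all genes. MS4A3, a membrane protein of granulocyte and monocyte progenitors, had 187 in THP-1 but was listed at 0 in the library labelled MOLM13. MPO, the myeloperoxidase gene that dominates the granules of promyelocytes, was not called, with 40.8 in THP-1 against 14.4 in the library labelled MOLM13, with 6748 in HL60. The serine protease gene PRSS57 ran the other way, with 1.75 in THP-1 against 64.0 in the library labelled MOLM13. CST7, which encodes the protease inhibitor cystatin F, did too, with 1.44 in THP-1 against 29.7 in the library labelled MOLM13.

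Transcription factors of the myeloid lineage pointed toward THP-1. IRF8 (chr16:85899162-85922606), a factor needed for monocyte development, had 590 in THP-1 against 0.894 in the library labelled MOLM13, a 660.5-fold difference (interval 443 to 1011), with 0.825 in K562 and 3.52 in HL60. SPI1, which encodes PU.1, had 156 in THP-1 against 9.88 in the library labelled MOLM13, with 0 in K562 and 232 in HL60. CEBPA had 28.2 in THP-1 against 4.52 in the library labelled MOLM13, and CEBPD had 31.3 and 4.67. GFI1 (64.8) and IRF5 (41.5) were present in THP-1 and listed at 0 in the library labelled MOLM13. CEBPE, a factor of late granulocyte maturation, was low in both, at 4.90 in THP-1 against 0.321 in the library labelled MOLM13, with 244 in HL60. Of 19 factors compared, 7 were higher in THP-1 and none in the library labelled MOLM13, and the median was 1.80. With genes at 0 left out, 5 of 14 were higher in THP-1 and none in the library labelled MOLM13, and the median was 1.23. CEBPB, at 10.0 in THP-1 against 21.4 in the library labelled MOLM13, and NR4A1, at 0.425 and 2.66, had lower values in THP-1 without passing the rule. With a pseudocount of 5 the differences of CEBPA (1.80) and CEBPD (1.91) fell short of 2.

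Monocyte and phagocyte surface genes gave the same picture. Of 40 such genes, 13 lay under 1 scaled TPM in both libraries, and of the other 27, 18 were higher in THP-1, with 1 higher in the library labelled MOLM13, and the median was 3.97. CCR2, the receptor for the monocyte attractant CCL2, had 148 in THP-1 against 0.323 in the library labelled MOLM13, with 0 in K562 and 0.562 in HL60. MNDA, a nuclear antigen of myeloid cells, had 285 in THP-1 against 1.35 in the library labelled MOLM13, and CD4 had 141 and 0.501. Among the 13 genes compared that were at 0 in the library labelled MOLM13, S100A8 had 1054, TYROBP 249, CD68 179 and CSF1R 24.5 in THP-1. The exception was VCAN, the versican proteoglycan gene, at 5.24 in THP-1 against 24.2 in the library labelled MOLM13, whose difference was -1.80 in aligned bases not divided by length. CD14, the endotoxin co-receptor often used to mark monocytes, was at like levels, with 1.64 in THP-1 against 1.53 in the library labelled MOLM13, and FCGR1A was at 0 in both. Of 16 chemokines and receptors, 9 were higher in THP-1 and none in the library labelled MOLM13, and the median was 2.30. With genes at 0 left out, 2 of 6 were higher in THP-1 and none in the library labelled MOLM13, and the median was 1.07. CCL5 (99.8), CCL23 (53.7) and CCR1 (27.9) were present in THP-1 but at 0 in the library labelled MOLM13.

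Antigen presentation and the machinery of innate defence were also higher in THP-1. Of 13 MHC class II genes compared, 10 were higher in THP-1, with 1 higher in the library labelled MOLM13, and the median was 4.36. With genes at 0 left out, 4 of 7 were higher in THP-1, with 1 higher in the library labelled MOLM13, and the median was 2.22. CD74, the invariant chain that guides class II molecules, had 298 in THP-1 against 3.28 in the library labelled MOLM13, and the lysosomal protease gene CTSS had 268 and 12.1. HLA-DRA had 51.5 and HLA-DRB1 had 120 in THP-1, and both were at 0 in the library labelled MOLM13. HLA-DPB1 ran the other way at 0.410 in THP-1 against 6.44 in the library labelled MOLM13. Class II genes have near-identical copies, so the split of reads among them is uncertain. Among 21 MHC class I genes, 7 were higher in THP-1, with 1 higher in the library labelled MOLM13 (median 0.95). The immunoproteasome subunits stood out, with PSMB10 at 714 in THP-1 against 24.5 in the library labelled MOLM13, PSMB9 at 173 and 10.7, and PSMB8 at 423 and 51.1. Of 6 subunits of the phagocyte NADPH oxidase compared, 4 were higher in THP-1 (median 2.79). Of the 4 above 0 in both, 2 were higher in THP-1 (median 1.68). CYBA had 1123 in THP-1 against 198 in the library labelled MOLM13, CYBB had 14.1 and 0.789, and NCF4 had 97.4 in THP-1 but was at 0 in the library labelled MOLM13. Of 13 inflammasome genes, 7 were higher in THP-1, and of the 7 above 0 in both, 3 were (median 1.69). Among these were the adaptor gene PYCARD (203 in THP-1 against 4.16 in the library labelled MOLM13) and the sensor gene NLRP3 (25.6 and 1.94). IL1B, the cytokine that the inflammasome matures, was the exception, listed at 0 in THP-1 against 123 in the library labelled MOLM13. Calls were lost where HLA-DPB1 differed by -1.41 in aligned bases not divided by length and PYCARD by 0.63 in internal exons. PYCARD coverage was at least 4-fold higher in THP-1 in 2 of its 2 exon segments with signal.

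**Figure D2:**
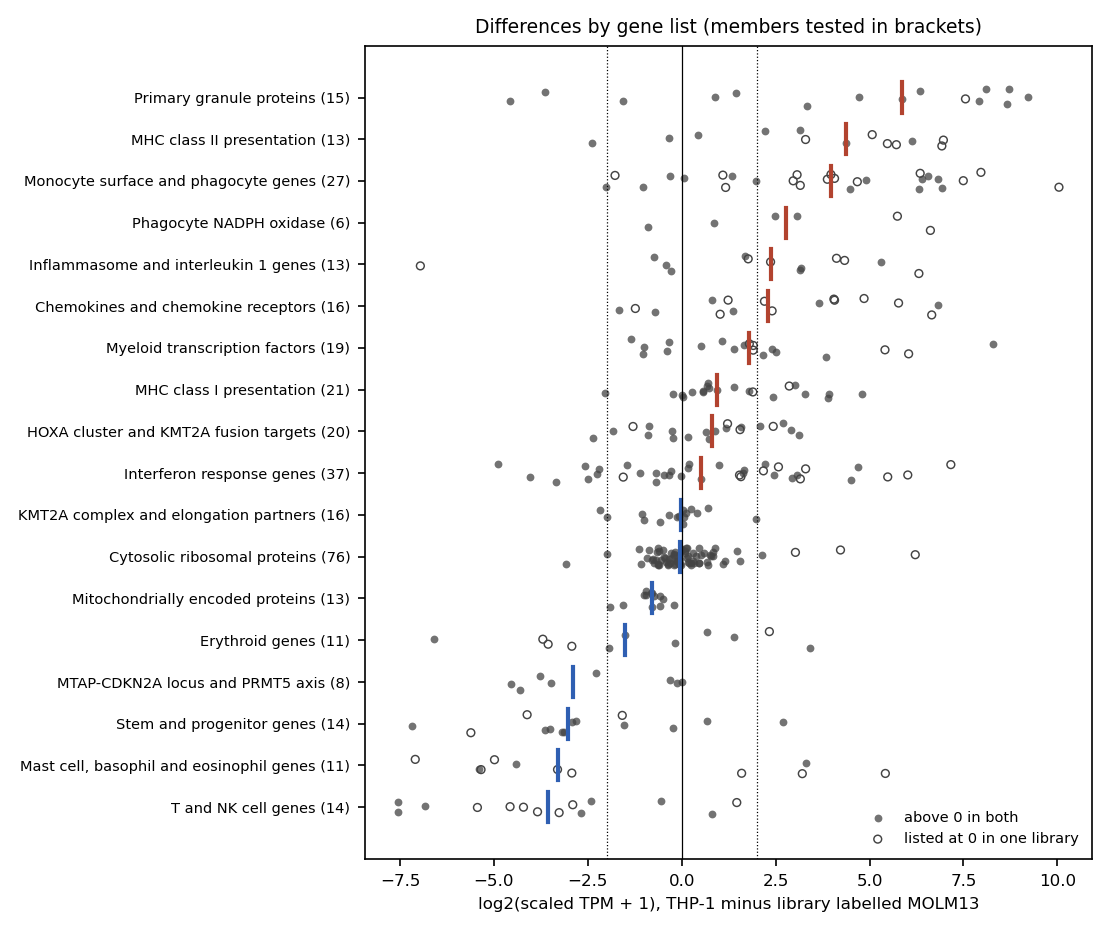
Each point is 1 gene of the list named at the left, placed by its log2(scaled TPM + 1) difference, THP-1 minus the library labelled MOLM13, with vertical jitter for legibility. Open points are listed at 0 in one of the libraries, the thick bar is the list's median and dotted lines mark a difference of 2 either way. Primary granule proteins have a median of 5.86 and T and NK cell genes one of -3.55.

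Interferon response genes differed in both directions. Of 37 compared, 13 were higher in THP-1, with 7 higher in the library labelled MOLM13, and the median was 0.52. With genes at 0 left out, 6 of 27 were higher in THP-1, with 7 higher in the library labelled MOLM13, and the median turned to -0.29. Over all genes above 0 in both the median was -0.19. SAMHD1, a nucleotide hydrolase that restricts viruses, had 163 in THP-1 against 5.37 in the library labelled MOLM13, and IFITM3 had 142 in THP-1 but was at 0 in the library labelled MOLM13. IFI16, a DNA sensor, had 23.9 in THP-1 against 250 in the library labelled MOLM13, RSAD2 (viperin) had 0.815 and 52.4, and IFI44 had 7.62 and 50.7, a difference of -1.88 in aligned bases. In internal exons IFITM3 differed by 0.03, while 2 of its 2 exon segments with signal were at least 4-fold higher in THP-1.

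Among protein-coding genes, the highest levels in THP-1 were those of SRGN and CAP1. SRGN, which encodes the granule proteoglycan serglycin and was named after its values were seen, had 9495 in THP-1 against 162 in the library labelled MOLM13, with 82.7 in K562 and 13114 in HL60. CAP1 (chr1:40040233-40072649), an actin regulator that binds adenylyl cyclase, had 9230 scaled TPM in THP-1 against 135 in the library labelled MOLM13, with 148 in K562 and 273 in HL60. The difference was 68.1-fold (interval 65.9 to 70.4) and the other libraries all lay far below THP-1. In 15 of its 15 merged exon segments with signal, coverage was at least 4-fold higher in THP-1. Other genes among the 12 largest differences toward THP-1 were PPP1R27, a phosphatase subunit gene (780 in THP-1 against 1.67 in the library labelled MOLM13), and CHI3L1, a secreted chitinase-like protein gene (1202 and 3.54). AGT, which encodes angiotensinogen, had 239 in THP-1 against 0.317 in the library labelled MOLM13. MS4A6A, a myeloid membrane protein gene, had 262 in THP-1 against 0.318 in the library labelled MOLM13, and GTSF1, a small RNA pathway gene best known in the germ line, had 387 and 1.26. The histone gene H4C6 had 2980 in THP-1 against 12.04 in the library labelled MOLM13, but its near-identical copies make the assignment of reads uncertain, and over 52 histone genes the median was 0.10 with 3 higher in THP-1.

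In the other direction, the largest differences were in genes of lymphoid cells, progenitors, mast cells and red cells. CD3D (chr11:118339075-118342705), a signalling chain of the T cell receptor complex, had 4.11 scaled TPM in THP-1 against 958 in the library labelled MOLM13, with 52.3 in K562 and 3.58 in HL60. It was 233-fold higher in the library labelled MOLM13 (interval 180 to 311). CD96 (chr3:111292719-111665750), a receptor of T and NK cells that is also a marker of leukemic stem cells, had 1.99 in THP-1 against 556 in the library labelled MOLM13, with 0.695 in K562 and 2.00 in HL60. CD34 (chr1:207880972-207911402), the surface sialomucin of hematopoietic progenitors, had 0.452 in THP-1 against 209 in the library labelled MOLM13, with 0 in K562 and 0.113 in HL60. HDC (chr15:50241947-50265965), the enzyme that makes histamine, had 0.0486 in THP-1 against 43.2 in the library labelled MOLM13. Its fold of 889 has an interval of 275 to 8237, because the THP-1 value rests on 2.24 fragments. ITM2A, a membrane protein gene of developing lymphocytes, had 5.61 in THP-1 against 699 in the library labelled MOLM13. MMRN1, which encodes the platelet and endothelial protein multimerin, had 0.588 in THP-1 against 51.5 in the library labelled MOLM13. TFPI, an inhibitor of coagulation, had 1.01 in THP-1 against 86.4 in the library labelled MOLM13, a difference of -5.44 that was -3.76 in aligned bases not divided by length.

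T and NK cell genes as a list were higher in the library labelled MOLM13. Of 33 genes, 19 were under 1 scaled TPM in both, and of the other 14 none was higher in THP-1 and 11 were higher in the library labelled MOLM13, and the median was -3.55. IL32, a cytokine gene of activated lymphocytes, had 6.34 in THP-1 against 834 in the library labelled MOLM13. CD247, GZMA, CD7 and CD3E were at 0 in THP-1 and had 42.4, 22.8, 17.6 and 13.3 in the library labelled MOLM13. IL2RG, the common gamma chain of interleukin receptors, had 2.44 in THP-1 against 177 in the library labelled MOLM13, but 263 in HL60. CTSW, a protease gene of cytotoxic lymphocytes, had 5.40 in THP-1 against 376 in the library labelled MOLM13. The T cell receptor constant gene TRBC2, the kinase gene LCK and the co-receptor genes CD2 and CD5 were at 0 in both, so several defining members of the list were not seen. Of 18 B cell genes, 1 was compared and none was called. CD7 differed by -1.07 in internal exons.

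Of 14 stem and progenitor genes compared, 1 was higher in THP-1, with 9 higher in the library labelled MOLM13, and the median was -3.02. ERG, an ETS factor of stem cells, was at 0 in THP-1 against 48.0 in the library labelled MOLM13, and at 0 in K562 and HL60. GATA2 had 1.01 in THP-1 against 21.9 in the library labelled MOLM13, and MSI2, an RNA-binding regulator of progenitors, had 2.76 and 33.2. LMO2, a bridging factor of blood stem cells, was the exception with 42.1 in THP-1 against 5.69 in the library labelled MOLM13. Of 11 mast cell, basophil and eosinophil genes, 3 were higher in THP-1, with 7 higher in the library labelled MOLM13, and the median was -3.31. HPGDS, FCER1A and CPA3, genes of prostaglandin synthesis, the IgE receptor and a mast cell protease, were at 0 in THP-1 and had 136, 39.6 and 30.7 in the library labelled MOLM13. CLC, the Charcot-Leyden crystal protein gene, had 0.630 in THP-1 against 33.8 in the library labelled MOLM13. The leukotriene genes of the list ran the other way, with ALOX5AP at 41.8 and ALOX5 at 8.25 in THP-1 and both at 0 in the library labelled MOLM13.

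Red cell and platelet genes differed in both directions. RHAG, the Rh-associated membrane channel of red cells, had 4.04 in THP-1 against 490 in the library labelled MOLM13, close to its 495 in K562. The erythroid master factor GATA1 was at 0 in THP-1 against 6.6 in the library labelled MOLM13, with 103 in K562, and HBZ was at 0 in both. Of 11 erythroid genes compared, 2 were higher in THP-1, with 4 higher in the library labelled MOLM13, and the median was -1.51. With genes at 0 left out, 1 of 7 was higher in THP-1 and 1 was higher in the library labelled MOLM13, and the median was -0.17. Over all genes above 0 in both, the shares were 5.09% and 5.97% and the median was -0.19. CA2, a carbonic anhydrase gene, was 10.8-fold higher in THP-1, with 2187 in THP-1 against 203 in the library labelled MOLM13. ITGA2B, the platelet integrin gene, was at 0 in THP-1 against 88.6 in the library labelled MOLM13, while PF4, GP9 and GP1BA were at 0 in both. Of 8 megakaryocyte and platelet genes compared, 1 was higher in THP-1, with 3 higher in the library labelled MOLM13, and the median was -1.03. Of the 6 above 0 in both, 1 was higher in THP-1, with 2 higher in the library labelled MOLM13, and the median was -0.47. MYL9, a myosin light chain gene of platelets and smooth muscle, ran the other way with 121 in THP-1 against 1.62 in the library labelled MOLM13. The keratin gene KRT18 had 15.3 in THP-1 against 236 in the library labelled MOLM13, and KRT7 had 72.4 and 506. The K562 library had keratin levels near those of the library labelled MOLM13, with 274 for KRT18 and 415 for KRT7, and the part of other cells in these values was not tested.

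**Figure D3:**
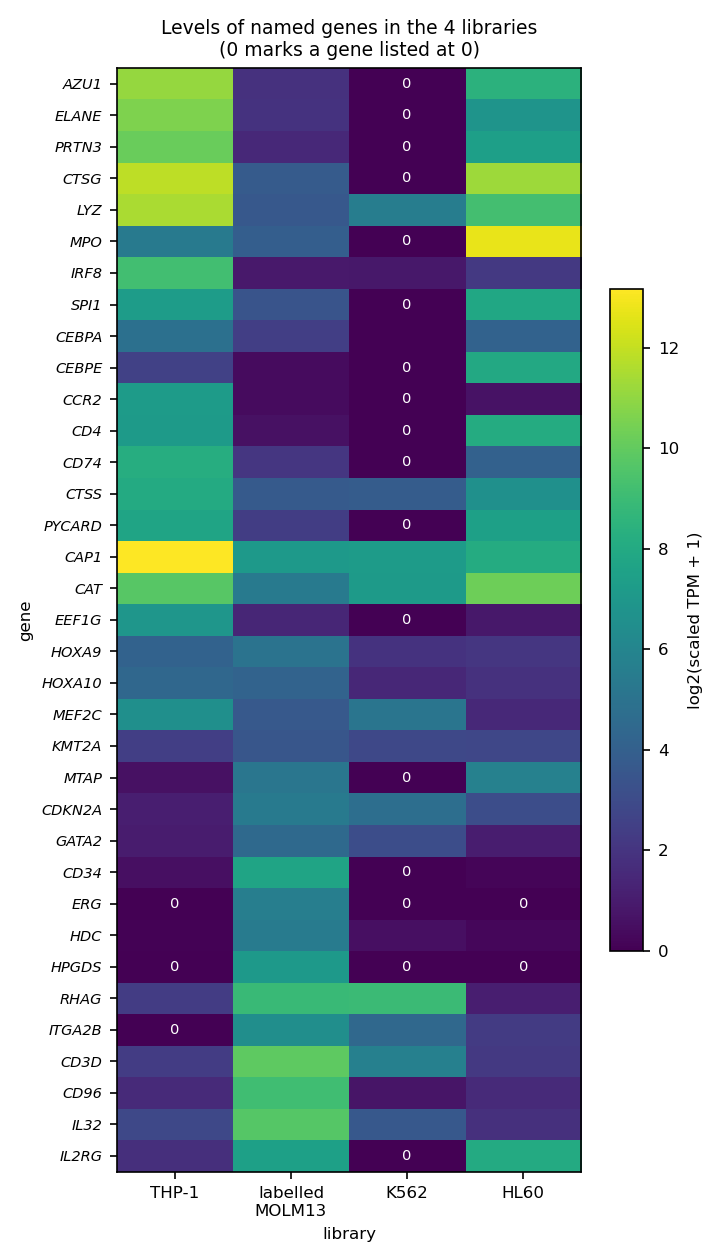
Rows are named genes, columns are the 4 libraries with THP-1 first and the library labelled MOLM13 next to it, and colour is log2(scaled TPM + 1), with 0 printed where a gene is listed at 0. Granule genes such as AZU1, CTSG and LYZ are bright in THP-1 and HL60. IRF8 and CCR2 are bright in THP-1 and much dimmer in HL60, while MPO and CEBPE are brighter in HL60 than in THP-1. CD34, ERG, HDC and HPGDS are bright in the library labelled MOLM13 alone among these 4.

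Among genes of the KMT2A pathway, the complex itself and its targets are given apart. Of 16 members of the KMT2A complex and its elongation partners compared, none was higher in THP-1 and 1 was higher in the library labelled MOLM13, and the median was -0.01. These counts stand beside shares of 11.5% and 8.15% over all genes. KMT2A (chr11:118436490-118526832) had 4.45 in THP-1 against 10.3 in the library labelled MOLM13, with 6.30 in K562 and 6.06 in HL60. MLLT3, the partner fused to KMT2A in THP-1, was the called gene, with 0.952 in THP-1 against 7.83 in the library labelled MOLM13. PSIP1, the chromatin tether of the KMT2A and menin complex, had 20.8 in THP-1 against 86.0 in the library labelled MOLM13 and fell just short of a call. AFF1, of the same list, fell just short the other way, with 31.4 in THP-1 against 7.18 in the library labelled MOLM13. Of 20 HOXA and fusion target genes compared, 5 were higher in THP-1, with 1 higher in the library labelled MOLM13, beside the same shares over all genes. The median was 0.80. MEF2C had 93.0 in THP-1 against 11.6 in the library labelled MOLM13, ZEB2 had 67.9 and 6.98, and JMJD1C had 54.4 and 12.1. HOXA7 ran the other way at 1.17 in THP-1 against 10.2 in the library labelled MOLM13. With a pseudocount of 5, MLLT3 (-1.11), HOXA7 (-1.30) and JMJD1C (1.80) fell short of a call. HOXA9, at 2.79 in K562 and 3.24 in HL60, and HOXA10, at 1.76 and 2.64 there, had higher values in both libraries of the comparison than in those lines. MEIS1, the usual partner of HOXA9, was 0.321 in THP-1 against 0 in the library labelled MOLM13. Genes of the HOXA cluster share exonic bases with neighbours and antisense transcripts, so their levels are uncertain.

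The MTAP and CDKN2A genes, which neighbour each other, were both higher in the library labelled MOLM13. MTAP (chr9:21802636-21937651), a methionine salvage enzyme gene, had 0.533 in THP-1 against 34.6 in the library labelled MOLM13, with 0 in K562 and 53.6 in HL60. Its neighbour CDKN2A (chr9:21967752-21995301), which encodes the cell cycle inhibitors p16 and p14ARF, had 1.15 in THP-1 against 41.3 in the library labelled MOLM13, with 26.5 in K562 and 7.63 in HL60. Of 8 genes of this locus and of the PRMT5 methyltransferase axis compared, 5 were higher in the library labelled MOLM13 and none in THP-1, with a median of -2.89. One of these, CLNS1A, had 39.5 in THP-1 against 548 in the library labelled MOLM13, but its difference shrank to -1.82 in aligned bases not divided by length. Of 28 DNA methylation and Polycomb regulators compared, none was higher in THP-1 and 2 were higher in the library labelled MOLM13, a share near the 8.15% over all genes. These were KDM6A and DNMT3B. KDM6A, a histone demethylase gene, had 0.173 in THP-1 against 10.8 in the library labelled MOLM13, and DNMT3B, a DNA methyltransferase gene, had 1.42 and 28.98. Of 21 FLT3, STAT5 and MAPK output genes, 3 were higher in THP-1, with 5 higher in the library labelled MOLM13, beside 11.5% and 8.15% over all genes. PIM1 had 5.17 in THP-1 against 29.3 in the library labelled MOLM13, the cyclin gene CCND2 had 2.01 and 23.1, and DUSP6, a feedback inhibitor of MAPK signalling, had 24.2 and 3.27. Of 41 MYC network and cell cycle genes compared, 4 were higher in THP-1, with 2 higher in the library labelled MOLM13, and the median was 0.06. These shares lie below the 11.5% and 8.15% over all genes. Among the 4 was CDC20 (493 in THP-1 against 97.6 in the library labelled MOLM13), and CCND2 was one of the 2. With a pseudocount of 5, KDM6A (-1.61), PIM1 (-1.75) and DUSP6 (1.82) fell short of a call, and MTAP differed by -3.44 in aligned bases, against -4.54 in TPM.

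A difference between libraries may sit in 1 exon or run along the whole gene, so coverage was compared over merged exon segments. Among called genes above 0 in both with at least 3 segments, 238 of 404 genes higher in THP-1 (58.9%) and 277 of 466 higher in the library labelled MOLM13 (59.4%) were 4-fold different in at least 75% of segments. By contrast, 76 (18.8%) and 63 (13.5%) of them were 4-fold different in under 50% of segments. CD96 differed in 15 of 15 segments, CD34 in 9 of 9, MTAP in 8 of 8 and IRF8 in 10 of 10. FLNA, the actin crosslinker filamin A, had 8.82 in THP-1 against 103 in the library labelled MOLM13, and differed in 40 of 40 segments. AKT2 was called with 4.27 in THP-1 against 39.7 in the library labelled MOLM13, but 7 of its 11 segments were 4-fold higher in the library labelled MOLM13 and 1 was 4-fold higher in THP-1.

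**Figure D4:**
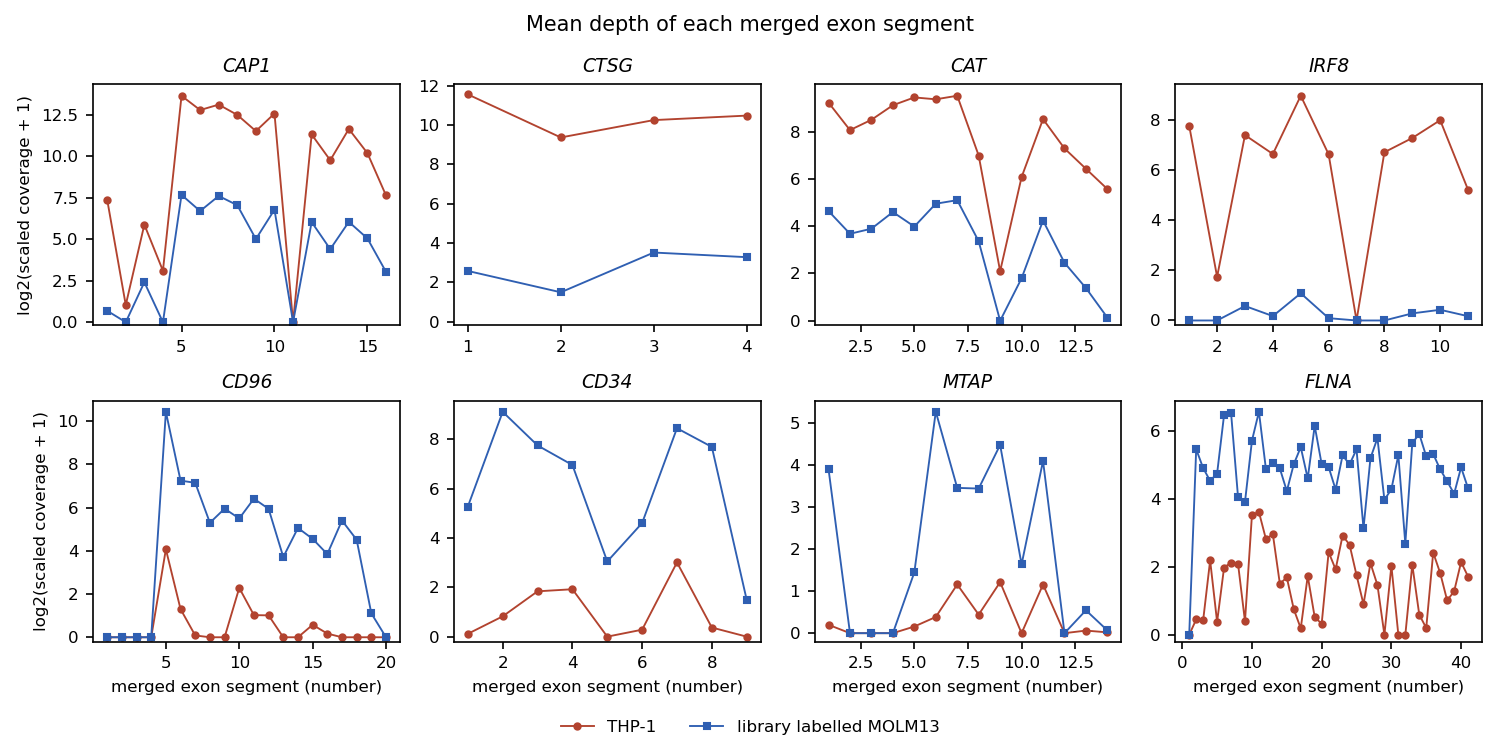
Each panel is 1 gene, with merged exon segments numbered 5′ to 3′ on the gene's strand on the horizontal axis and log2(scaled coverage + 1) on the vertical axis. The THP-1 line lies above that of the library labelled MOLM13 along CAP1, CTSG, CAT and IRF8, and below it along CD96, CD34, MTAP and FLNA, wherever either has signal.

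Calls among genes of translation and cholesterol synthesis stand beside 11.5% higher in THP-1 and 8.15% higher in the library labelled MOLM13 over all genes. Among genes above 0 in both, these shares were 5.09% and 5.97%. The translation factors and cholesterol synthesis genes compared were all above 0 in both. Of 76 cytosolic ribosomal protein genes, 4 were higher in THP-1, with 1 higher in the library labelled MOLM13, and the median was -0.04, and 3 of the 4 were at 0 in the library labelled MOLM13. Of 39 translation factors, 2 were higher in THP-1 with a median of 0.07. EEF1G, an elongation factor subunit gene, had 118 in THP-1 against 1.65 in the library labelled MOLM13, with 0 in K562 and 0.828 in HL60. It shares exonic bases with another gene. Of 26 cholesterol synthesis genes, 1 was higher in THP-1 (median 0.14). The 13 mitochondrially encoded proteins all had lower values in THP-1, with a median of -0.80, and none was called in either direction (0.0% each). MT-ND1, a subunit gene of respiratory complex I, had 214 in THP-1 against 811 in the library labelled MOLM13. CAT, the peroxide-degrading enzyme catalase, had 846 in THP-1 against 42.4 in the library labelled MOLM13, and the metallothionein genes MT1E (145) and MT1G (53.2) were at 0 in the library labelled MOLM13.

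Among 747 lncRNA genes compared, 123 (16.5%) were higher in THP-1 and 80 (10.7%) were higher in the library labelled MOLM13. Many lncRNAs share exonic bases with coding genes, whose reads could count for both. Among the 222 that share none, 46 (20.7%) were higher in THP-1 and 27 (12.2%) were higher in the library labelled MOLM13. LINC01962 (chr5:181178821-181191852) had 330 in THP-1 and 236 in HL60 and was at 0 in the library labelled MOLM13 and in K562. LINC02169 (127) and AC125603.2 (115) were present in THP-1 but at 0 in the library labelled MOLM13. AL157895.1 (chr10:19710328-19728550) had 0.964 in THP-1 against 135 in the library labelled MOLM13, a difference supported by 26.0 and 1797 fragments. AL359458.1 was at 0 in THP-1 against 132 in the library labelled MOLM13, and lies on chr6 beyond the CRISP3 gene, which had 2.74 in THP-1 against 405 in the library labelled MOLM13. HOTAIRM1, a HOXA cluster lncRNA, had 4.47 in THP-1 against 23.6 in the library labelled MOLM13, but differed by -0.51 in aligned bases. Fragments on an lncRNA were not checked for translation here.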

How the data were processed

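The data are ribosome profiling libraries of 4 leukemia cell lines, 1 each, grouped by the cell line label. Per the submitters' processing notes the tools were StringTie 2.1.5, STAR 2.7.8a, Bowtie2 2.4.2 and Trim Galore 0.6.6, with build hg38. The deposited files give, for each transcript and exon, the authors' TPM, FPKM and coverage, and hold GENCODE release 37 genes. No read counts were used, and strand-specific counting is not given in the sources used here.

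TPM was summed per gene identifier. Each library was divided by its median ratio over 4908 genes at 10 TPM or more in both (0.959 for THP-1 and 1.04 for the library labelled MOLM13), and differences are on the log2(scaled TPM + 1) scale, which understates changes of low genes. Aligned bases are the deposited coverage times exon length, and 29 bases count as 1 fragment. Intervals of folds are exact 95% binomial intervals on the fragment counts of both libraries, carried over to the fold in scaled TPM. At 600 bases the 95% Poisson interval of a single level is 61.7% to 153% of the value, and fragments are not independent molecules. Gene classes came from GENCODE release 29. The rule was tested on simulated data.

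The comparison, the gene lists (42, with 1090 genes) and the rules were chosen with earlier results of these data known. Named are the 12 largest called differences per direction among genes above 0 in both, the 8 largest at 0 in the other library, the 4 largest lncRNAs without shared exonic bases, and from each list the 6 largest differences and the members against its median. Lineage markers and some further genes of the lists were named after their values were seen. Python 3.11.15, pandas 2.3.3 and SciPy 1.17.1 were used. Y-linked genes were not named, and some genes of the lists are not reported here.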

Additional observations from a re-analysis of the deposited data

How the results depend on the processing

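No paired analysis was possible because each line has 1 library, and for the same reason no replicate could be left out. Against 1283 protein-coding genes higher in THP-1 and 906 higher in the library labelled MOLM13, the counts were 1877 and 1493 with a pseudocount of 0.1, 517 and 265 with 5, 2624 and 2608 at a log2 difference of 1, and 682 and 337 at 3. They were 471 and 552 without genes at 0, and 631 and 468 without genes sharing exonic bases. Genes whose internal exons also differed by 2 in the same direction, an alternative added after the data were seen, numbered 879 and 627. Another added alternative, raising the THP-1 minimum in proportion to depth, gave 1279 and 906, near the 1283 and 907 found with no minimum, and does not bear on genes at 0. Against 123 and 80 lncRNAs, the counts were 248 and 155 with a pseudocount of 0.1, 30 and 13 with 5, 278 and 189 at a difference of 1, 62 and 28 at 3, 23 and 33 without genes at 0, 46 and 27 without shared exonic bases, and 20 and 14 in internal exons. Those higher in the library labelled MOLM13 were 53 in aligned bases and 32 with a minimum of 3000 bases. Leaving out genes at 0 lowered the share of protein-coding calls higher in THP-1 to 46.0%, against 58.6%. The causes of these shifts were not tested beyond what each setting leaves out. Without scaling the median of genes at 10 TPM or more moved to -0.13, and with scaling over genes at 1 TPM or more to 0.11. Of 225 called named genes none changed direction, and 214 stayed at 2 or more in aligned bases, 169 in internal exons and 158 with a pseudocount of 5. With that pseudocount CYBB (1.72), ALOX5 (1.41) and GATA1 (-1.21) also fell short of 2, as did MT1G (1.03), LINC02169 (0.94) and DUSP6 (0.63) in internal exons. Internal exons are those neither first nor last in a transcript. Genes without one, such as CEBPA, CCR1 and LINC01962, differ by 0 there by definition. The internal-exon counts therefore cannot include such genes, and their loss there is not a result about them.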

Other observations

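Among genes at 10 TPM or more in both libraries, the median difference varied by chromosome. Chromosome 5 had the highest median difference, THP-1 minus the library labelled MOLM13, at 0.45 over 206 genes, with quartiles of -0.09 and 0.88. Chromosome 6 followed at 0.22 over 259 genes and chromosome 1 at 0.18 over 504 genes. Chromosome 21 had the lowest median at -0.42 over 43 genes, with quartiles of -0.83 and 0.20. The quartile ranges of all these chromosomes overlap.

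Of 16 surface antigens targeted in leukemia therapy and compared, 6 were higher in THP-1, with 3 higher in the library labelled MOLM13. These counts stand beside 11.5% and 8.15% over all genes, and the median was -0.005. Among the 3 were CD96, with 1.99 in THP-1 against 556 in the library labelled MOLM13, and CD7, with 0 and 17.6. CD70 had 148 in THP-1 and was at 0 in the library labelled MOLM13, CD33 had 52.1 in THP-1 against 5.87 in the library labelled MOLM13, and LILRB4 had 31.1 and 0.0714. Of 13 BCL2 family genes, 2 were higher in THP-1, with 1 higher in the library labelled MOLM13, shares near the 11.5% and 8.15% over all genes, and none of the 10 above 0 in both was called. MCL1 had 65.5 in THP-1 against 18.2 in the library labelled MOLM13 without passing the rule. Of 30 genes of glycolysis and the pentose phosphate pathway, 5 were higher in THP-1, with 3 higher in the library labelled MOLM13, also near those shares, and with genes at 0 left out 1 of 24 was higher in each. Of 43 actin regulators and integrins, 8 were higher in THP-1, with 7 higher in the library labelled MOLM13, beside 11.5% and 8.15% over all genes. ITGAL had 21.8 in THP-1 against 112 in the library labelled MOLM13, and IQGAP2 had 0.724 and 40.8.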
